A study of Rattus norvegicus with 93 samples.

Results

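The genes described here carry out bone resorption by osteoclasts, or set how many osteoclasts form, in healing holes of the rat calvaria, the flat roof of the skull. They were chosen by symbol from a list of 9 genes, of which 7 had a probe on the array among 15975 named genes tested. The measured members were Ctsk, Acp5, Atp6v0d2, Calcr, Dcstamp, Tnfsf11 and Tnfrsf11b. For Oscar, an osteoclast costimulatory receptor, and Tnfrsf11a, which encodes the receptor RANK, no probe was found by symbol or accession, and both are not analysed here.

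Osteoclasts are large multinucleate cells that form when precursors of the monocyte lineage fuse. They seal off a patch of bone, pump acid under it to dissolve mineral, and release proteases that digest the collagen left behind. Their formation requires RANKL, the protein of Tnfsf11, made by osteoblast-lineage cells, stromal cells and activated T cells. RANKL binds RANK on the precursors, and OPG, the secreted decoy receptor encoded by Tnfrsf11b, captures RANKL before it can do so. In a healing skull defect, osteoclasts trim the cut bone edge and remodel newly laid woven bone.

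Each of 93 one-colour arrays measured RNA from 1 defect of a male rat aged 12 weeks, of a strain that the labels do not name. A hole of 4 or 8 mm was trephined in the calvaria, the dura mater under it was kept, no other treatment was given, and the healing plug was harvested with a trephine of the same size on day 1, 3, 5, 7, 10, 14 or 21. The series calls the 8 mm hole a critical-size defect and the 4 mm hole a defect below that size. In day order, the 4 mm groups held 3, 8, 11, 5, 4, 5 and 6 arrays and the 8 mm groups 5, 11, 12, 5, 6, 6 and 6. All rats carried a defect and intact bone is not analysed here. Day 1 was therefore the reference, and its 8 arrays are shared by every comparison with it. The plug is mixed tissue, in which fewer cells of a type and less RNA per cell cannot be told apart. Replicates bear the rat number of the sample title, and p-values rest on the spread between these samples.

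Values are log2 of the deposited linear ratio, which sets each probe against its own typical level over the arrays, so levels of different genes cannot be compared. The lowest deposited ratio was 0.01, or -6.64 on the log2 scale, and values at this floor have no order. Ctsk, Acp5, Dcstamp and Tnfrsf11b were above it on all 93 arrays. Atp6v0d2 was at the floor on 2 arrays, Tnfsf11 on 15 and Calcr on 33. Each change is a difference of log2 group means with its SE, fitted by limma, and its p-value was adjusted by Benjamini-Hochberg over all 15975 genes, and a gene passed at an adjusted p under 0.05.

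Some arrays stood apart. On 7 arrays the median log2 level of probes never at the floor was below -0.7, namely replicates 13 (day 1) and 10 (day 10) among the 4 mm defects, and replicates 11 (day 1), 18 and 20 (day 3), and 10 and 11 (day 10) among the 8 mm defects. On all 7 of them Ctsk and Tnfrsf11b lay below the median of their group. On 8 arrays the mean log2 value of 7 brain genes was above 2, namely replicates 17 (day 14) and 10, 11 and 15 (day 21) among the 4 mm defects, and replicates 17 (day 5), 10 and 12 (day 7), and 11 (day 14) among the 8 mm defects. Acp5 lay below its group median on all 8 of these. Over all genes the median difference from day 1 was 0.34 on day 5 and 0.25 on day 7, and -0.07 and -0.09 after each array was centred on its median.

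Promoter sequence was looked up because Ctsk and Acp5 rose together. RefSeq windows on GRCr8 matched 4 of the 7 measured members, namely Ctsk, Acp5, Calcr and Tnfsf11. The 250 bases upstream of the Ctsk start lie at chr2:185747298-185747547 on the plus strand. Acp5 has 2 windows, and the one printed lies at chr8:28943930-28944179 on the minus strand. It is the one of the 2 that holds the motif marked below. Which Acp5 start is used in these defects was not measured. Capitals mark CACATG, an E-box of the kind bound by MITF, a transcription factor of osteoclasts.
Ctsk: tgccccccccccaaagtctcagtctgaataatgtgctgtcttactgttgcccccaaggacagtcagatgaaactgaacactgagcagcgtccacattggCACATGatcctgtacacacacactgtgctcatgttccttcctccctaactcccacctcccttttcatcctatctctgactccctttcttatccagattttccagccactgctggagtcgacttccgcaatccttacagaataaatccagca
Acp5: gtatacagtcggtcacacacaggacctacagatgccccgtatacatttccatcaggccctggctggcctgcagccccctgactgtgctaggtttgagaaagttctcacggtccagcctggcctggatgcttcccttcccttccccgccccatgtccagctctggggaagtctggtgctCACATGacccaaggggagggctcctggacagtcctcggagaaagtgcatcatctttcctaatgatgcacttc
Each motif was searched for on both strands. CACATG lay at position -151 from the Ctsk start and at -72 from this Acp5 start. It was in 12.1% of 33469 windows of this length, and was not in the other Acp5 window or in those of Calcr and Tnfsf11. GGAAA, the core of NFAT sites, was in the Ctsk window and in the printed Acp5 window, and in 56.9% of all windows. GAGGAA, a core of PU.1 sites that can overlap GGAAA, was in the Ctsk and Tnfsf11 windows and in 23.3% of all. TGANTCA, the AP-1 motif, was in none of the members' windows and in 6.34% of all. These are matches of letters, not measured binding sites.

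**Figure D1:**
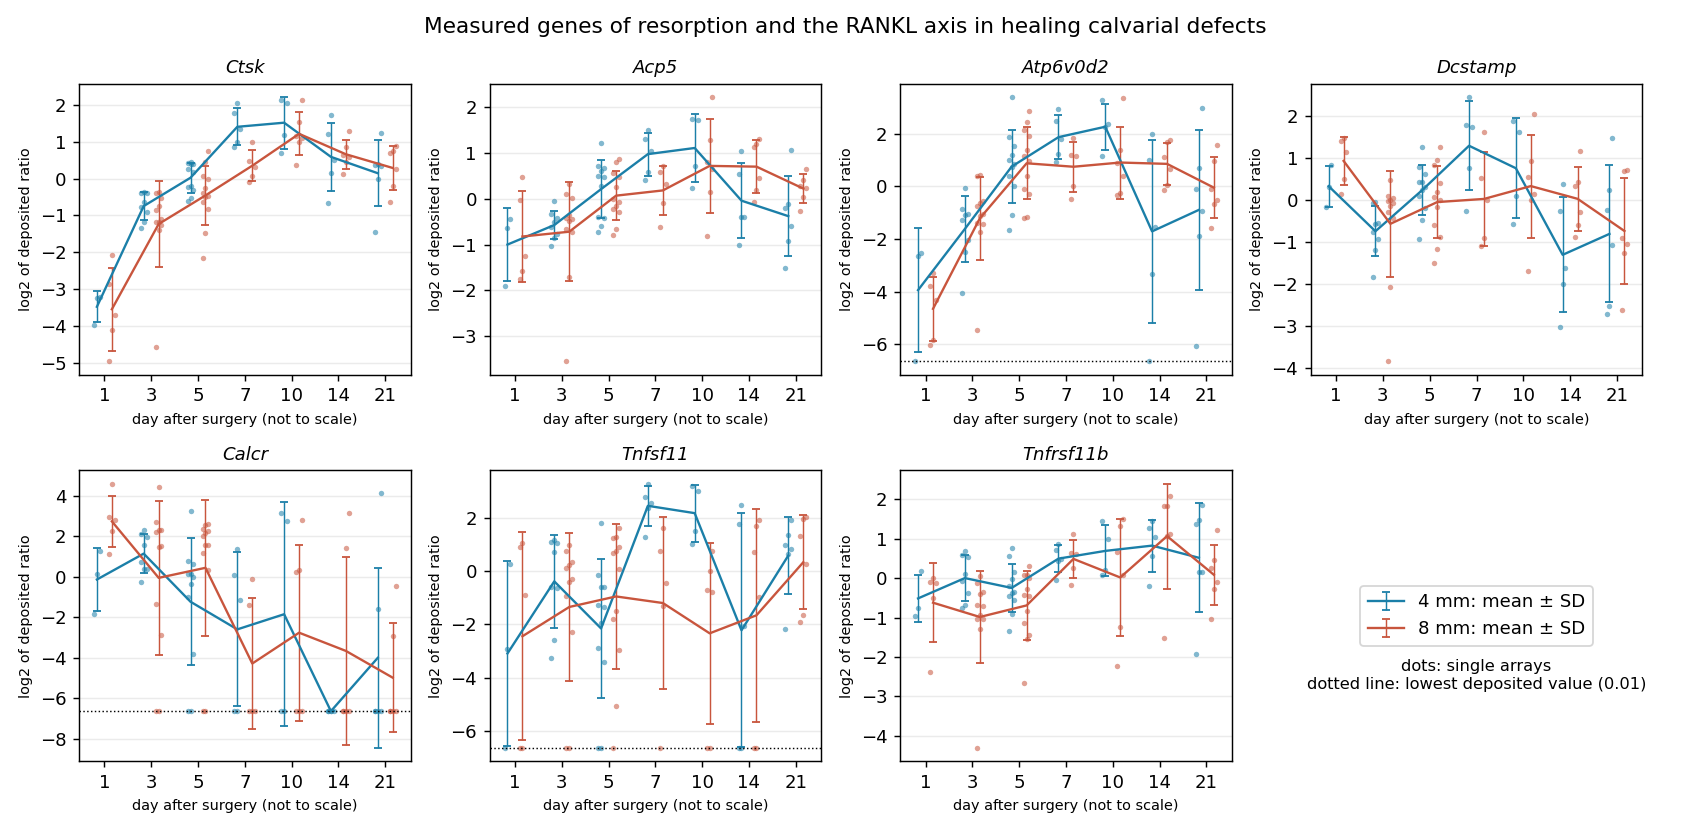
Log2 of the deposited ratio of the 7 measured genes (vertical axes) by day after surgery (horizontal axes, not to scale) in 4 mm (blue) and 8 mm (red) defects, with 1 dot per array, lines joining group means and bars of 1 SD. The group means of Ctsk and Atp6v0d2 were lowest on day 1, and arrays stood at the floor of -6.64 (dotted line) in Calcr (33), Tnfsf11 (15) and Atp6v0d2 (2).

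The genes that carry out resorption rose over healing. Ctsk, Atp6v0d2 and Acp5 all had their highest mean of both defect sizes on day 10, at 29.4-fold, 58.5-fold and 3.54-fold of day 1. For none of them did a step between sampled days after day 7 pass. In 8 mm defects the mean of Atp6v0d2 was 0.87, 0.74, 0.90 and 0.85 on days 5, 7, 10 and 14. That of Acp5 was 0.71 on day 10 and 0.70 on day 14. The 58.5-fold of Atp6v0d2 rests on day 1 values at or near the floor. It was 36.6-fold without replicate 18 of 4 mm day 1 and 11.9-fold with ratios under 0.25 raised to 0.25, and passed in both cases. The 29.4-fold of Ctsk also depends on low values of day 1. For Ctsk it was 10.3-fold with ratios under 0.25 raised to 0.25 and 59-fold under quantile normalization, and passed in both cases. Ctsk and Atp6v0d2 passed on every later day, and Acp5 from day 5 to day 14.

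Ctsk encodes cathepsin K, the main protease with which osteoclasts cleave bone collagen. On day 1 it read -3.97, -3.24 and -3.22 in the 4 mm defects and -4.96, -2.06, -2.87, -4.12 and -3.71 in the 8 mm defects. On day 7 the 4 mm defects read 1.79, 1.35, 1.01, 0.85 and 2.04. The 8 mm defects of day 7 read -0.09, 0.07, 0.47, 0.31 and 0.99. Every array of day 7 was thus above every array of day 1, in both sizes. On day 10 the 4 mm defects read 0.69, 1.18, 2.14 and 2.05, and the 8 mm defects ranged from 0.37 to 2.13 with a median of 1.13. On day 21 the 4 mm defects ranged from -1.45 to 1.25 with a median of 0.35, and the 8 mm defects from -0.64 to 0.89 with a median of 0.47. All 12 arrays of day 21 were still above all 8 of day 1. Against day 1, Ctsk was 2.52 ± 0.325 higher on day 3, with an adjusted p of 8.25e-09. The change was 3.29 on day 5, 4.39 on day 7 and 4.88 ± 0.366 on day 10, where the adjusted p from limma was 5.3e-19. It was 4.14 on day 14 and 3.73 ± 0.350 on day 21. On day 3, 18 of 19 arrays were above all arrays of day 1. The exception was replicate 18 of the 8 mm defects at -4.57, which is also the array of lowest level, at -2.69.

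Atp6v0d2 encodes the d2 subunit of the vacuolar proton pump, which osteoclasts use to acidify the resorption pit and which also takes part in their fusion. On day 1 it read -2.53, -2.65 and -6.64 in 4 mm defects and -4.32, -3.80, -6.01, -3.29 and -5.82 in 8 mm defects. On day 7 the 4 mm values were 2.47, 2.92, 0.91, 1.24 and 1.78. The 8 mm values of day 7 were 0.00, 1.20, 1.83, 1.16 and -0.48. All 10 arrays of day 7 lay above all 8 of day 1, as did all 23 of day 5. From day 14 the 4 mm defects spread widely, with -6.64, 1.98, -3.32, 0.98 and -1.55 on that day, while the 8 mm defects ranged from -0.15 to 1.77 with a median of 0.88. Against day 1 the change was 2.88 ± 0.706 on day 3 (adjusted p 0.0036), 5.10 on day 5, 5.59 on day 7 and 5.87 ± 0.795 on day 10 (adjusted p 1.27e-08). It was 3.86 on day 14 and 3.82 on day 21. The call on day 3 was lost without replicate 18 of 4 mm day 1, the array at the floor, at 2.20 and an adjusted p of 0.0839. It was also lost when ratios under 0.25 were raised to 0.25, at 0.90 and an adjusted p of 0.315.

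Acp5 encodes tartrate-resistant acid phosphatase, the enzyme stained for in counts of osteoclasts and also made by some macrophages. Its excursion was smaller. On day 1 it read -1.91, -0.65 and -0.45 in 4 mm defects and -1.75, 0.48, -1.26, -1.57 and -0.02 in 8 mm defects. On day 7 the 4 mm values were 1.31, 1.05, 0.59, 0.40 and 1.50. The 8 mm values of day 7 were -0.62, -0.09, 0.71, 0.32 and 0.58, so that 6 of the 10 arrays of that day lay above all of day 1 and the others overlapped with it. On day 10 the 4 mm defects read 0.72, 0.24, 1.72 and 1.74, and the 8 mm defects ranged from -0.81 to 2.22 with a median of 0.73. Against day 1 the change was 0.27 on day 3 (adjusted p 0.805), 1.05 ± 0.313 on day 5 (0.00982), 1.49 ± 0.359 on day 7 (0.00114), 1.82 ± 0.363 on day 10 (9.52e-05), 1.24 ± 0.353 on day 14 (0.00667) and 0.83 on day 21 (0.0646). Without replicate 13 of 4 mm day 1, an array of low level, the change was 0.82 on day 5 (adjusted p 0.116) and 1.01 on day 14 (0.0569), and neither passed. On day 21 the change passed without replicate 12 of 8 mm day 1, at 1.00 (adjusted p 0.027), and without replicate 16 of that group, at 0.93 (0.0452). Without the 7 arrays of low level, the change on day 5 was 0.71 (0.111).

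The rise was placed by comparing each sampled day with the one before, both sizes weighted equally. From day 1 to day 3, 2 of 7 members passed, where 6.44% of all genes did. These were Ctsk and Atp6v0d2, at 2.52 and 2.88, and for both it was the largest step in the values as deposited. For Atp6v0d2 this order rests on day 1 values at or near the floor. Without replicate 18 of 4 mm day 1 its first step was 2.20 (adjusted p 0.0839 from limma), below its next step of 2.23. With ratios under 0.25 raised to 0.25 its first step was 0.90 (0.315), and its change from day 1 to day 5 was 2.81. Between days 3 and 5, Atp6v0d2 rose by 2.23 ± 0.509 (adjusted p 0.00317), Acp5 by 0.78 ± 0.232 (0.0352) and Ctsk by 0.77 ± 0.235 (0.0426). These are 3 of 7 members, where 3.71% of all genes passed that step. Without the 7 arrays of low level the steps of Acp5 and Ctsk were 0.57 (0.0789) and 0.58 (0.069) and did not pass. Between days 5 and 7 only Ctsk passed, at 1.09 ± 0.285 (0.00689), where 10.5% of all genes passed. No member passed between days 7 and 10, 10 and 14, or 14 and 21, steps at which 0.213%, 1.03% and 1.52% of all genes passed. The step from day 10 to day 14 read -2.01 ± 0.722 for Atp6v0d2 (adjusted p 0.169), -0.74 for Ctsk (0.31) and -1.18 for Dcstamp (0.217).

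**Figure D2:**
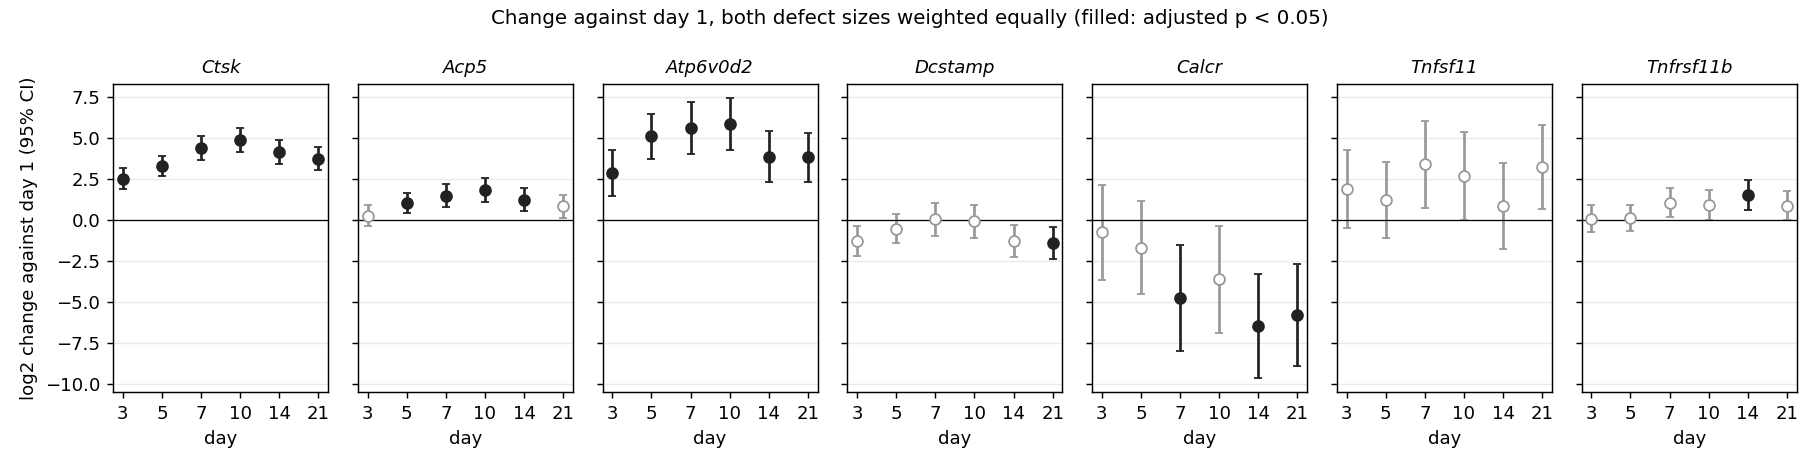
Log2 change of each measured gene against day 1 with both defect sizes weighted equally (vertical axis, bars of the 95% confidence interval) at each later day (horizontal axis). Filled points passed at an adjusted p under 0.05, which Ctsk and Atp6v0d2 did on all 6 later days, Acp5 from day 5 to day 14, and Tnfsf11 on none.

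Dcstamp, which encodes the membrane protein that osteoclast precursors need in order to fuse, showed no rise over day 1 like that of the 3 effectors. Its means on days 1, 3, 7 and 14 were 0.33, -0.75, 1.29 and -1.31 in 4 mm defects. In 8 mm defects they were 0.93, -0.57, 0.02 and 0.03. From day 3 to day 7 its means thus rose in both sizes, as those of the effectors did, which was not tested. The probe carries this symbol in the platform's annotation, and its accession was not matched to a current gene. On day 1 it read -0.16, 0.82 and 0.32 in 4 mm defects and 0.15, 1.40, 1.14, 0.49 and 1.47 in 8 mm defects. On day 7 the 4 mm values were 1.73, 1.79, 0.76, -0.27 and 2.46. The 8 mm values of day 7 were -1.10, -0.92, 1.62, 0.51 and 0.00. The arrays of day 7 lay on both sides of those of day 1. On day 14 the 4 mm values were -1.61, -0.27, -3.03, 0.39 and -2.01, and on day 21 the 8 mm values ranged from -2.63 to 0.71 with a median of -0.99. Against day 1 the change was -1.29 on day 3 (adjusted p 0.0738), 0.03 on day 7 (0.976), -1.27 on day 14 (0.0549) and -1.40 ± 0.485 on day 21 (0.0238). Only the last passed, with 8 of 12 arrays below all of day 1. Without replicate 17 of 4 mm day 1 it was -1.28 (0.0725), and without the 8 arrays with brain signal -1.21 (0.0722). The change on day 14 passed without replicate 11 of 8 mm day 1, at -1.37 (0.0453), and without replicate 16 or 18 of 4 mm day 14, at -1.40 (0.0395) and -1.48 (0.026). On day 3 all 19 arrays lay below the mean of day 1 of their size, and the change passed under quantile normalization, at -1.92 (0.00647).

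Calcr, which encodes the calcitonin receptor of mature osteoclasts, had 2 probes that disagreed. The more variable probe read 1.25, 0.16 and -1.82 on day 1 in 4 mm defects and 2.79, 4.61, 1.12, 2.25 and 2.96 in 8 mm defects. On day 14 all 5 arrays of 4 mm defects and 4 of the 6 of 8 mm defects were at the floor. Its change against day 1 was -4.75 ± 1.63 on day 7 (adjusted p 0.0267), -6.46 ± 1.60 on day 14 (0.0016) and -5.80 ± 1.57 on day 21 (0.00332). With the other probe the same changes were 0.13, -0.62 and -1.18, with adjusted p of 0.973, 0.853 and 0.672. That probe had 3 of its 5 arrays of 8 mm day 1 at the floor. No direction can therefore be given for Calcr. The call on day 7 was also lost without replicate 13 or 17 of 4 mm day 1, at -4.40 (0.0839) and -4.67 (0.0502), or without replicate 10 or 12 of 4 mm day 7, both at -4.24 (0.0584 and 0.0604).

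The ligand and its decoy moved less clearly than the effectors. Tnfsf11, the RANKL gene, passed on no day against day 1, and Tnfrsf11b, the OPG gene, passed on day 14 alone. Tnfsf11 was uneven from array to array. On day 1 it read -6.64, -2.91 and 0.28 in 4 mm defects and 0.89, -0.89, 1.06, -6.64 and -6.64 in 8 mm defects. On day 7 the 4 mm values were 3.28, 2.54, 2.77, 1.28 and 2.37. The 8 mm values of day 7 were -6.64, -0.43, 0.74, -1.30 and 1.63. In 4 mm defects every array of day 7 was above every array of day 1, and in 8 mm defects 1 of 5 was. On day 10 the 4 mm values were 1.01, 1.51, 2.99 and 3.17, and the 8 mm values ranged from -6.64 to 0.77 with a median of -0.74. On day 14 the 4 mm values were -2.07, -6.64, 1.76, 2.49 and -6.64, which spanned almost the whole range measured. On day 21 no array was at the floor, and the 4 mm and 8 mm medians were 0.90 and 0.78.

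Against day 1, Tnfsf11 was 3.39 ± 1.34 higher on day 7 (adjusted p 0.0583), 2.69 ± 1.35 on day 10 (0.168), 0.83 ± 1.31 on day 14 (0.713) and 3.22 ± 1.29 on day 21 (0.0542). In 4 mm defects alone the change on day 7 was 5.54 ± 2.02 (0.0569), and it was 7.22 (0.0307) without replicate 18 of day 1 and 3.76 (0.435) without replicate 13. All 12 arrays of day 21 were above the mean of day 1 of their size, and 5 were above all of day 1. The change on day 7 passed without replicate 18 of 4 mm day 1 (4.24, adjusted p 0.0286), without replicate 11, 12 or 13 of 8 mm day 1 (3.81, 3.59 and 3.83, adjusted p 0.0404, 0.0481 and 0.0341), and without replicate 10 of 8 mm day 7 (4.07, 0.0213). On day 21 it passed without the same 5 arrays, at 4.07, 3.64, 3.42, 3.66 and 3.22 (adjusted p 0.0258, 0.032, 0.0484, 0.0318 and 0.048), and without replicate 18 of 4 mm day 14, at 3.22 (0.0495). Without replicate 13 of 4 mm day 1, which is at the floor, the change was instead smaller, at 2.50 (0.256) on day 7, 1.80 (0.461) on day 10 and 2.34 (0.237) on day 21. With ratios under 0.25 raised to 0.25 the change on day 7 was 2.002 (0.0177). Activated T cells make RANKL, and of 10 markers of T and natural killer cells none passed on day 7 and 4 were higher on day 21. The mean of these markers on an array ranged from -1.37 to 0.45 on day 1 and from -0.91 to 1.88 on day 21 over both sizes, and their part in the values of Tnfsf11 was not tested.

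Tnfrsf11b read -0.96, 0.18 and -0.75 on day 1 in 4 mm defects and -2.38, 0.00, -0.10, -0.50 and -0.12 in 8 mm defects. On day 7 the 4 mm values were 0.49, 0.72, 0.45, -0.04 and 0.86. The 8 mm values of day 7 were -0.17, 0.25, 0.61, 1.11 and 0.64, and 8 of the 10 arrays of that day were above all of day 1. On day 14 the 4 mm values were 0.57, 1.44, -0.20, 1.05 and 1.27, and the 8 mm values ranged from -1.52 to 2.07 with a median of 1.48. Against day 1 the change was 1.06 ± 0.456 on day 7 (adjusted p 0.0862), 0.92 on day 10 (0.164), 1.51 ± 0.448 on day 14 (0.00916) and 0.87 on day 21 (0.136). OPG transcript was thus 2.86-fold of day 1 on day 14, with 9 of 11 arrays above all of day 1.

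The difference between the log2 values of Tnfsf11 and Tnfrsf11b on an array follows changes of the RANKL to OPG balance, and its zero has no meaning of its own. In 4 mm defects it was 2.79, 1.82, 2.32, 1.31 and 1.51 on day 7 and 0.92, 1.29, 1.99 and 1.72 on day 10. In 8 mm defects it was -6.47, -0.68, 0.13, -2.41 and 0.99 on day 7. It ranged from -6.73 to 1.23 with a median of -1.74 on day 10 in the larger defects. All 5 arrays of 4 mm day 7 were above all 5 of 8 mm day 7. On day 14 the means were -3.05 ± 4.86 (SD, n = 5) and -2.73 ± 3.48 (SD, n = 6), and 2 arrays of each group had Tnfsf11 at the floor. The balance was described and not tested.

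**Figure D3:**
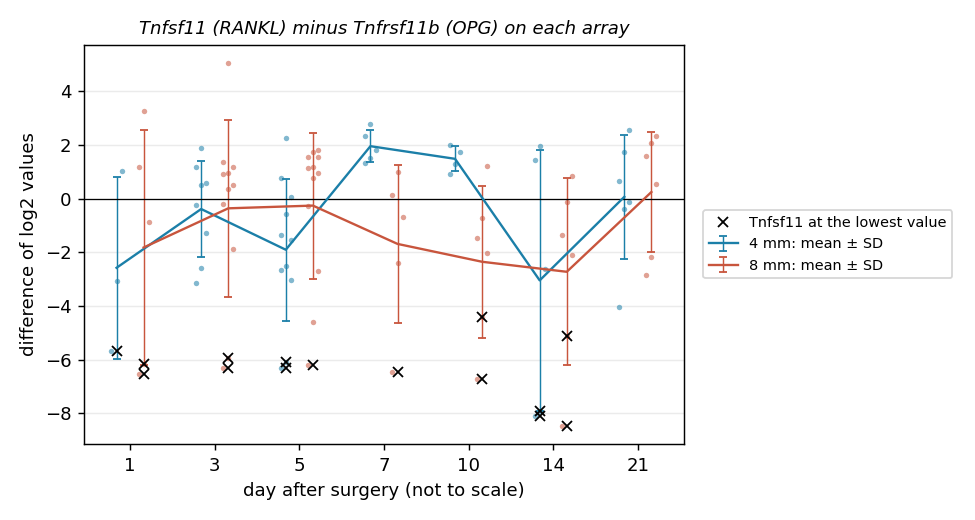
Log2 value of Tnfsf11 minus that of Tnfrsf11b on each array (vertical axis) by day after surgery (horizontal axis, not to scale) in 4 mm (blue) and 8 mm (red) defects, with lines for group means, bars of 1 SD and crosses where Tnfsf11 was at the floor. The 4 mm arrays of days 7 and 10 lay between 0.92 and 2.79, and the 8 mm arrays of those days between -6.73 and 1.23.

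Read against all genes, the count of members that passed was as follows. With both sizes weighted equally, 2, 3, 4, 3, 5 and 4 of the 7 members passed at days 3, 5, 7, 10, 14 and 21, where 6.44%, 19%, 21.4%, 16.6%, 21% and 26.2% of all genes passed. In 4 mm defects alone the counts were 1, 2, 3, 3, 1 and 1, against 2.21%, 6.51%, 12.5%, 4.07%, 7.96% and 8.87% of all genes. In 8 mm defects alone they were 2, 2, 3, 3, 5 and 3, against 2.61%, 11.7%, 8.38%, 11.2%, 11.1% and 18.5%. Ctsk passed on each later day in each size. Its calls of day 3 were lost when ratios under 0.25 were raised to 0.25. They then read 1.26 (adjusted p 0.075) in 4 mm and 1.00 (0.0728) in 8 mm defects. Atp6v0d2 passed on all later days in 8 mm defects, and on days 5, 7 and 10 in 4 mm defects. Acp5 passed on days 7 and 10 in 4 mm defects, at 1.97 and 2.11, and on days 10 and 14 in 8 mm defects, at 1.54 and 1.52. Each of these 4 calls was lost without 1 array of day 1. In 4 mm defects this was replicate 13, without which the changes were 1.52 (adjusted p 0.171) and 1.65 (0.205). In 8 mm defects it was replicate 11, with 1.31 (0.0611) and 1.29 (0.0754), or replicate 14, with 1.35 (0.059) and 1.34 (0.0638). The call of day 10 in 4 mm defects was also lost without replicate 12 or 13 of that day, at 1.90 (0.0694) and 1.89 (0.0705). The first probe of Calcr passed on days 7, 14 and 21 in 8 mm defects, at -7.03, -6.41 and -7.73. Of these, the call of day 7 was lost without replicate 12 of day 1 (-6.56) or replicates 10, 13 or 14 of day 7 (-6.44 each). That of day 14 was lost without replicate 11, 12 or 16 of day 1 (-6.40, -5.94 and -6.35). The call of Atp6v0d2 on day 5 in 4 mm defects was lost without replicate 18 of day 1, at 3.33 (adjusted p 0.118). The call of that gene on day 3 in 8 mm defects was lost without replicate 13 or 16 of day 1, at 3.09 (0.0592) and 3.14 (0.0832). The call of Tnfrsf11b on day 14 in 8 mm defects, 1.69 ± 0.572 (0.0407), was lost without replicate 11, 14 or 16 of day 1, at 1.25 (0.196), 1.72 (0.0622) and 1.81 (0.0503).

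Tested over all 7 days with limma's moderated F test, 6 of 7 members varied in 4 mm defects, where 33.5% of all genes did, and 5 of 7 in 8 mm defects, where 40.2% did. Ctsk, Acp5 and Atp6v0d2 passed in both sizes under all 37 alternatives. The first probe of Calcr passed in both sizes too, but its calls were lost under 5 of 38 alternatives in 4 mm and 2 of 38 in 8 mm defects. With the other probe its adjusted p was 0.401 and 0.439. Tnfsf11 passed in 4 mm defects (adjusted p 0.0298) and read 0.727 in 8 mm defects. Dcstamp read 0.00478 and 0.193, and Tnfrsf11b 0.291 and 0.00366, in 4 and 8 mm defects. The interaction of size and day, which tests whether the courses differ, was passed by 0 of 7 members and 0.538% of all genes, with adjusted p of 0.514 for Tnfsf11, 0.588 for Dcstamp and 0.885 for Tnfrsf11b. Different courses in the defect sizes were therefore not shown. The call of Tnfsf11 in 4 mm defects was lost without replicate 13 of day 1 (0.0561) or replicate 10 of day 7 (0.0511).

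No difference of a member between the defect sizes passed. This holds for 49 differences between 8 and 4 mm, tested in limma on days 1, 3, 5, 7, 10, 14 and 21, when 0%, 0%, 0%, 0.369%, 0.263%, 1.63% and 2.4% of all genes passed. Unadjusted p was under 0.05 for 6 of the 49. The share of all genes at that threshold is not given here, so this count is not read as a result about the members. The difference in Ctsk on day 7 was -1.05 ± 0.475, with a 95% interval that ended at -0.11 (adjusted p 0.289), and 4 of 5 arrays of 8 mm defects lay below all 5 of 4 mm defects. In Tnfsf11 it was -3.65 ± 1.75 on day 7 (0.31), and -2.28 (0.591) without replicate 10 of 8 mm day 7 or -4.35 (0.209) without replicate 15 of that group. On day 10 it was -4.51 ± 1.79 on day 10, with an interval of -8.07 to -0.95 (0.368). On day 10 all 6 arrays of 8 mm defects lay below all 4 of 4 mm defects in Tnfsf11. Atp6v0d2 on day 14 differed in the other direction, by 2.56 ± 0.987 (0.204), and depended on single arrays of 4 mm day 14. It was 1.33 (0.652) without replicate 15, which is at the floor, 3.23 (0.0907) without replicate 18, and 3.48 (0.0431) without replicate 16. Dcstamp read -1.27 on day 7 (0.346) and 1.34 on day 14 (0.357), and Tnfrsf11b -0.99 on day 3 (1). Of the 5 arrays of 8 mm day 7, replicates 10 and 12 are among those with brain signal, and they held the lowest values of Ctsk and Dcstamp in that group. Without the arrays with brain signal the differences of day 7 were -0.81 (0.5) in Ctsk, -0.58 (0.751) in Dcstamp and -2.09 (0.647) in Tnfsf11. The median difference of all genes on day 7 was -0.40, and with each array centred on its median those of Ctsk, Dcstamp and Tnfsf11 were -0.64, -0.85 and -3.23. With array weights 3 of the 49 passed, among them Ctsk and Dcstamp on day 7, at -1.16 and -1.76 (both 0.0169). The share of all genes that passed with array weights is not given here, so this count is not read as a result about the members.

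Averaged over the 7 days, 0 of 7 members passed, as did 0.413% of all genes. The mean difference was -0.31 for Ctsk, with a 95% interval of -0.64 to 0.02, and 0.01 for Acp5, with an interval of -0.32 to 0.34. It was -0.34 for Tnfrsf11b (-0.76 to 0.07), 0.11 for Atp6v0d2 (-0.62 to 0.83) and -0.99 for Tnfsf11 (-2.22 to 0.24). The intervals leave room for differences of the larger part of a log2 unit in Ctsk and of more than 2 units in Tnfsf11.

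**Figure D4:**
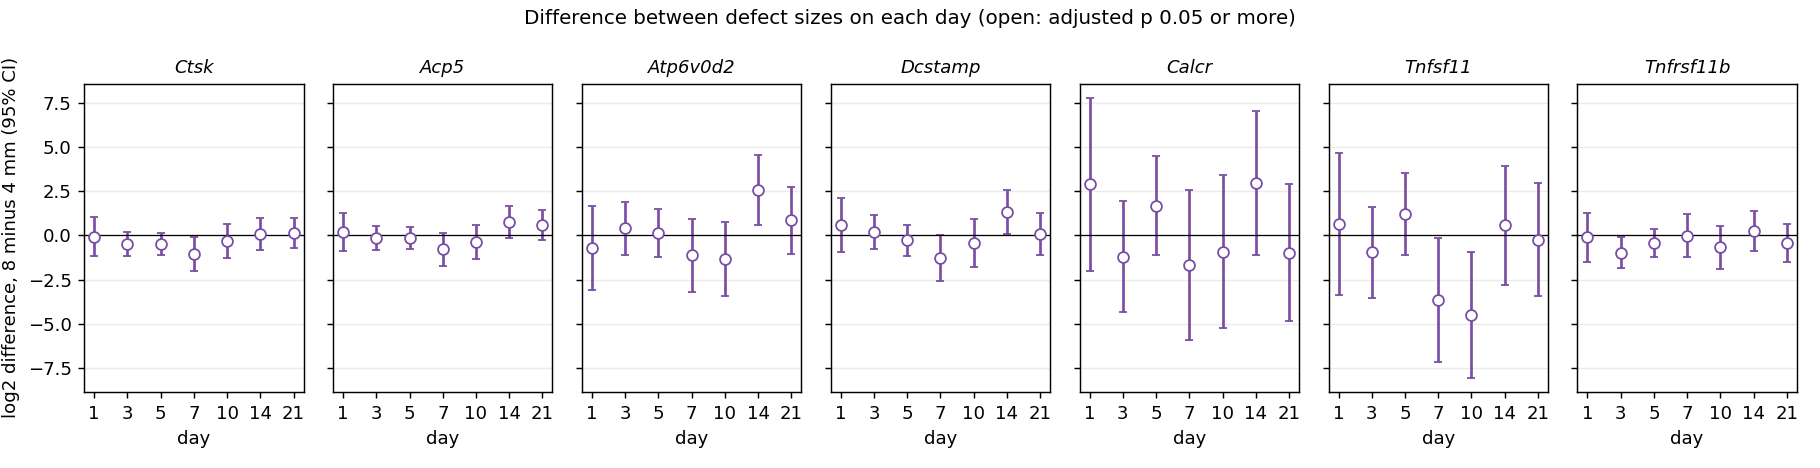
Difference between 8 and 4 mm defects in log2 units (vertical axis, bars of the 95% confidence interval) on each day (horizontal axis) for the 7 measured genes. All points are open, since none of the 49 differences passed, and the widest intervals belong to Calcr and Tnfsf11, the members with the most arrays at the floor.

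Other genes of osteoclast formation and function, from lists written by function, were set beside the members at days 7 and 21. Against day 1, 16.6% of all genes were higher and 4.84% lower on day 7, and 13.4% and 12.8% on day 21, and the medians of all genes were 0.25 and -0.18.

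Among the proteases that work beside cathepsin K, more rose than fell. On day 7, 4 of 7 other proteases of resorption were higher, with a list median of 1.43. They were led by the collagenase Mmp13 at 4.72 ± 0.546, the membrane-anchored collagenase Mmp14 at 2.10 ± 0.310, and the lysosomal cathepsin Ctss at 1.50 ± 0.314. On day 21, 3 were higher and 1 lower, with a median of 0.63, and Mmp13 was at 4.74 ± 0.526. In the proton pump and acid secretion list, 3 of 18 were higher on day 7, with a median of 0.45. These were the chloride transporter Clcn7 at 3.12 ± 1.14 and the pump subunits Atp6v0d1 at 1.14 ± 0.282 and Atp6v1d at 0.82 ± 0.288. The call of Clcn7 was lost under 16 of 37 alternatives and that of Atp6v1d under 11. On day 21 the carbonic anhydrase gene Car2 was higher by 1.88 ± 0.520, though at 1.40 (adjusted p 0.102) under quantile normalization. The pump subunits Tcirg1, at -0.87 ± 0.313, and Atp6v0c, at -0.75 ± 0.278, were lower, the former call being lost under 5 and the latter under 6 of 37 alternatives.

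Of 24 measured genes of RANK signalling and NFATc1, 1 was higher and 3 lower on day 7, and 1 higher and 7 lower on day 21, with list medians of 0.11 and -0.65. On day 7 Lgr4, a receptor for R-spondins that also binds RANKL, was higher by 1.64 ± 0.309. The adaptor Gab2 was lower by 1.65 and the calcineurin subunit Ppp3ca read -3.03, but -0.88 (adjusted p 0.143) as the mean of its probes. On day 21 the lower genes included Nfkb2, at -3.48 ± 1.09, which encodes the p100 precursor of the alternative NF-kappaB pathway. Prdm1, at -3.56, and the kinase adaptor Tab2, at -3.54, passed there too, with calls lost under 19 and 9 of 37 alternatives. Of 10 costimulation genes, Trem2, a receptor of macrophages and osteoclasts, was higher on day 7 by 1.81 ± 0.332. Its partner Tyrobp was lower on day 21 by 1.53 ± 0.269, as was Fcer1g by 1.07, the latter lost without the arrays with brain signal at -0.82 (0.0515). The list medians were -0.02 and -0.12. Neither of the 2 measured genes of the CSF1 axis passed at either day.

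For fusion, attachment and ruffled border, 5 of 15 genes were higher and 2 lower on day 7, and 1 higher and 2 lower on day 21, with medians of 0.17 and -0.13. The integrin subunit gene Itgav was higher by 1.68 ± 0.345 and the tetraspanin gene Cd9 by 1.66 ± 0.356 on day 7. The metalloprotease gene Adam8 was lower by 2.60 ± 0.345 on day 7 and by 3.22 ± 0.332 on day 21. Of 6 inhibitors of osteoclast formation, 2 were lower on day 7, namely the repressor Bcl6 at -2.64 ± 0.774 and the NF-kappaB inhibitor Nfkbia at -1.21 ± 0.349, and 1 was higher and 3 lower on day 21. Their medians were 0.05 and -0.56.

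Of 12 measured inducers of RANKL in stromal cells, 2 were higher and 4 lower on day 7, and on day 21, 3 were higher and 6 lower, with medians of -1.83 and -2.49. Pthlh, which encodes the parathyroid hormone-related protein, was higher on day 7 by 3.23 ± 0.356. Ptgs2, the inducible cyclooxygenase gene, read -5.70 ± 1.93 with 9 of 18 arrays at the floor, and its call was lost without replicate 13 or 18 of 4 mm day 1, at -5.21 (adjusted p 0.0842) and -5.19 (0.0733). The cytokine gene Osm read -3.47, and -2.47 (0.0954) without the arrays with brain signal. On day 21 the vitamin D receptor gene Vdr read -5.70 ± 1.56 with 11 of 20 arrays at the floor, and the cytokine gene Il6 -4.24 ± 0.520. Il17a read -3.62, a call lost under 10 of 37 alternatives. Of 7 factors that couple resorption to bone formation, 2 were higher on day 7, with a list median of 0.83. These were Cthrc1 at 5.52 ± 0.385 and the bone morphogenetic protein gene Bmp6 at 4.22 ± 0.856. On day 21, 3 were higher and 1 lower, with a median of 0.38, and Sema4d, an osteoclast signal that restrains osteoblasts, was lower by 4.37 ± 1.10.

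**Figure D5:**
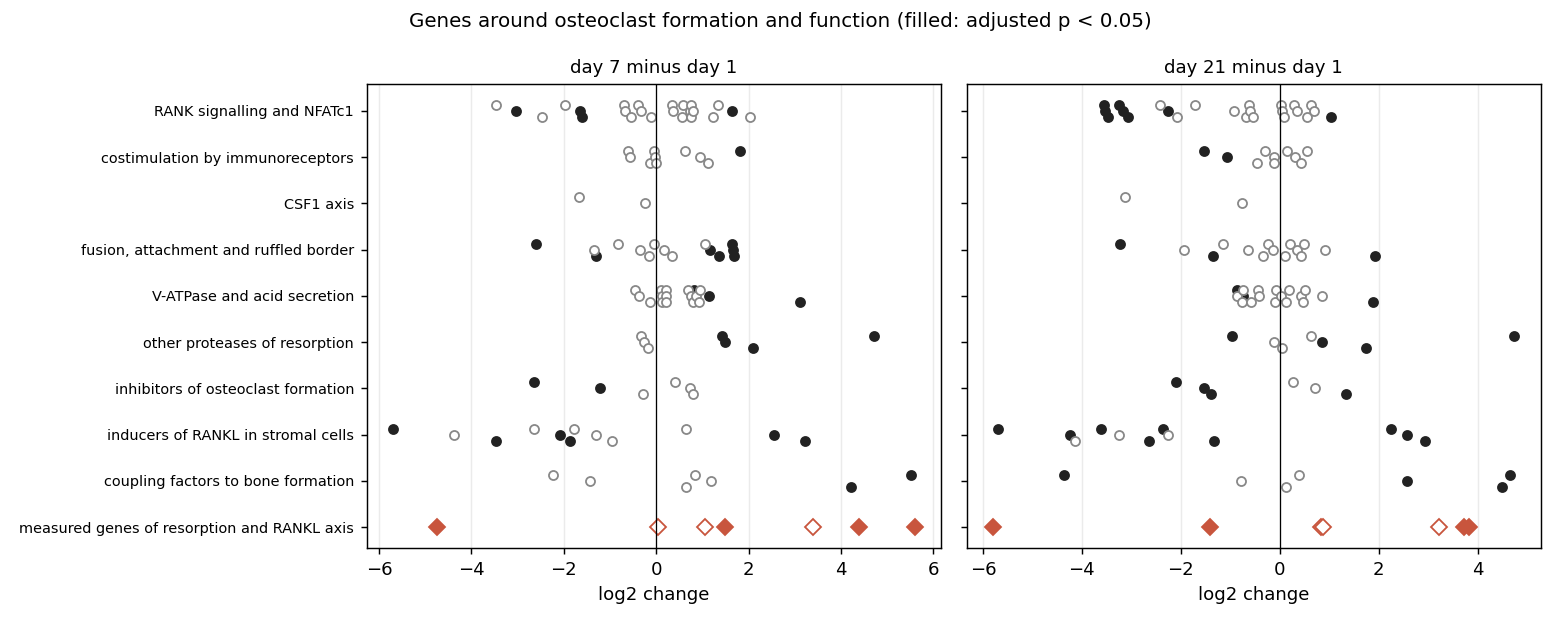
Log2 change against day 1 with both defect sizes weighted equally (horizontal axes) on day 7 (left) and day 21 (right) for the genes of 9 lists around osteoclast formation and function and, as diamonds, the 7 measured members (rows). Filled symbols passed at an adjusted p under 0.05, and the largest increases outside the members were Cthrc1 at 5.52 and Mmp13 at 4.72 on day 7.

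Markers of other cells moved over the same days. Of 12 monocyte and macrophage markers, 5 were higher on day 7, and 2 were higher and 3 lower on day 21. Their mean on an array ranged from -2.04 to 0.13 on day 1, from -1.32 to 0.62 on day 7 and from -2.78 to -0.28 on day 21. The macrophage mean of the 4 and 8 mm groups was -1.35 and -1.34 on day 21, and -0.75 and -0.67 on day 1. Of 12 osteoblast and osteocyte markers, 5 were higher on day 7, and 5 were higher and 1 lower on day 21, their mean on an array ranging from -2.73 to -0.77 on day 1 and from -2.08 to 0.76 on day 7. Of 8 fibroblast markers, 5 were higher on day 7, and of 9 muscle markers, 8 were lower. The mean of the fibroblast markers ranged from -4.47 to -1.46 on day 1 and from -0.62 to 1.15 on day 7. In the 4 and 8 mm groups it was -0.19 and -0.28 on day 21, and -2.33 and -2.47 on day 1. Of 7 neutrophil markers, 3 were lower on day 7, among them S100a9 at -4.47 ± 0.493. Their mean on an array ranged from 0.92 to 2.31 on day 1 and from -3.03 to 0.74 on day 7. Of 6 endothelial markers, 3 were higher on day 7, namely Pecam1, Kdr and Cldn5, and their mean ranged from -2.15 to -0.82 on day 1 and from -1.17 to 0.65 on day 7. The part of these cells in the members' values was not tested.

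Likeness of pattern was measured as Pearson's correlation of the 14 group means, over genes at the floor on at most 10% of arrays, as a description in which the points share arrays and the course from day 1. Ctsk was most like Sfrp2, a secreted Wnt modulator, at 0.976, Mmp14 at 0.975 and Glg1 at 0.972. Atp6v0d2 was most like the lysosomal galactosidase gene Glb1 at 0.979, Xylt2 at 0.977 and Gal3st4 at 0.967. Acp5 was most like the neuropeptide gene Gal at 0.964, Cdkn2a at 0.939 and Cpxm1 at 0.929. Dcstamp was most like Ints12 at 0.932, Tgm2 at 0.853 and Usp3 at 0.845, and Tnfrsf11b most like Phf14 at 0.898, Zmynd8 at 0.882 and Sertad2 at 0.880. Among the members, Ctsk and Atp6v0d2 correlated at 0.90, Acp5 and Atp6v0d2 at 0.90 and Ctsk and Acp5 at 0.88. Dcstamp correlated with Ctsk at -0.06, with Atp6v0d2 at 0.19 and with Acp5 at 0.36.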

How the data were processed

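RNA from 93 calvarial defects was labelled with Cy3 and hybridised to Agilent rat whole-genome arrays, per the labels' protocols. The deposited values are linear ratios, with a median of 1 over the arrays for 87.8% of 41090 probes. How the arrays were scanned, background-corrected and scaled is not stated in the labels, so signal over background cannot be given, and the number of arrays limits the precision. At the floor of 0.01 stood 13.4% of values. Here log2 was taken with no pseudocount. Groups of day and defect size came from the sample titles. Symbols came from the platform annotation, 2316 of them updated through accessions to GRCr8. Where a gene had several probes, its most variable probe by interquartile range stood for it. All arrays entered 1 limma cell-means model with a term for each of the 14 groups (limma 3.58.1, R 4.3.3, prior df 1.9, two-sided tests). The model was also run on simulated data with normally distributed noise and no floor. That run therefore cannot show how the tests behave for genes with values at the floor. The members, lists and comparisons were chosen with earlier results of these data known. Every member was described, with at most 3 names per list, those of largest change among genes that passed, and the 3 genes most like each member. Alternatives were quantile normalization, centring, filters on the floor and on variability, a raised floor, array weights, averaged probes, a block for rat number, a fit to only the groups compared, and leaving out arrays. The other probe of Calcr, and all alternatives for list genes, were added after the data were seen.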

Additional observations from a re-analysis of the deposited data

Results flagged for a closer look

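Of 69 sets of values examined, each being 1 member in 1 group of 4 to 10 arrays, 3 held a value far below all others of the set, where chance gives about 1 in 20. Tnfsf11 in replicate 11 of 4 mm day 21 read -2.19, against 0.64 to 1.90 on the other 5 arrays, and this array is one of those with brain signal. Tnfrsf11b in replicate 11 of 8 mm day 1 read -2.38, against -0.50 to 0.00 on the other 4, and this array is one of those of low level. Tnfrsf11b in replicate 15 of 8 mm day 14 read -1.52, against 1.07 to 2.07 on the other 5.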

How the results depend on the processing

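Of 108 single results that passed, 67 passed under every alternative run. Leaving out 1 array at a time, in groups of 3 to 5, gave 18 to 24 of 42 member changes against day 1 (21 with all arrays), 9 to 12 in 4 mm defects (11), 15 to 19 in 8 mm defects (18), 5 to 6 steps between days (6), 5 to 6 members over days in 4 mm (6) and 5 to 5 in 8 mm defects (5), 0 to 1 of 49 size differences (0), and 0 to 0 of 7 both for the mean over days and for the interaction. With only genes above the floor on all arrays, 3 of 4 members varied over days in each size, and 10 of 24 changes passed in 8 mm defects. With the less variable genes left out, only 3 members were tested, and 3 varied over days in 4 mm and 2 in 8 mm defects, with 9 of 18 changes against day 1, 3 in 4 mm and 9 in 8 mm defects, and 2 steps. Array weights gave 3 size differences, without the share of all genes under these weights beside them, and the cause was not tested. The other probe of Calcr gave 0.13 on day 7, and 1.28, 1.56 and 1.37 at days 7, 14 and 21 in 8 mm defects, where the first probe fell. The mean size difference of Acp5 changed sign to -0.0515 with quantile normalization, -0.0798 with array weights, -0.0856 with the block and -0.0334 without the arrays with brain signal, and ran from -0.0576 to 0.0465 on leaving out single arrays. That of Atp6v0d2 changed to -0.0614 with a raised floor and ran from -0.0867 to 0.2383 on leaving out single arrays. Same-numbered arrays of the sizes did not pair: the correlation of their deviations was -0.10 to 0.33 over 34 pairs, and 4 correlated best with their own number. The replicate block gave 1 term to each rat number over all days and both sizes, so it did not model pairs within a day. With this block, 20 changes against day 1 and 4 steps passed, with 9 changes in 4 mm defects and 5 members over days there. The filter on variability keeps genes by their spread over all arrays, which favours members that vary over days. The shares of all genes that passed with the filters, with the block or on leaving out arrays are not given here. These counts are therefore not read as results about the members. Signal over background is unknown, and values at the floor carry no order.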

Other observations

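Few genes around the members passed between the defect sizes. Jdp2, a repressor-type partner of AP-1 that takes part in osteoclast differentiation, was 4.37 ± 0.987 lower in 8 than in 4 mm defects on day 7 (limma, adjusted p 0.0183). Mmp9, the gelatinase of osteoclasts and neutrophils, was 2.33 ± 0.569 higher in 8 mm defects on day 14 (0.0145). Bmp6 was 2.25 ± 0.395 higher in 8 mm defects in the mean over the days (0.000432). Of the monocyte and macrophage markers, the scavenger receptor gene Cd163 was 4.20 ± 0.776 higher in 8 mm defects on day 14 (0.00061). On day 21, Spi1, which encodes the myeloid factor PU.1, was higher in 8 mm defects, at 2.09 ± 0.613 (0.0463). The RANK signalling genes Traf6, at -2.08 ± 0.612 (0.0473), and Map3k7, at -3.08 ± 0.668 (0.00533), were lower, as were the pump subunits Atp6v1d, at -1.44 ± 0.344 (0.0126), and Atp6v1e1, at -1.93 ± 0.534 (0.0318). The endothelial gene Cldn5, at -1.63 ± 0.476 (0.0454), and the neuronal gene Snap25, at -7.72 ± 2.12 (0.0307), were lower on that day too. Of the 6 arrays of 4 mm defects on day 21, 3 are among those with brain signal. The differences of day 21 without the arrays with brain signal are not given here. These are all the list genes that passed on day 7, 14 or 21 or in the mean over days, and they were chosen after their values were seen. Of the arrays compared, 2 of 10 were at the floor for Jdp2 and 1 of 11 for Cd163. Among the 12 arrays of day 21, the floor held 4 for Map3k7, 3 for Snap25, 2 for Traf6, and 1 each for Spi1 and Atp6v1e1. Whether these calls hold under the alternatives is not given here.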
